A study of Homo sapiens with 16 samples.

Results

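The 4 CDC-like kinases CLK1, CLK2, CLK3 and CLK4 and 6 serine/arginine-rich (SR) splicing factors, SRSF1, SRSF2, SRSF3, SRSF6, SRSF7 and SRSF11, were followed across 2 melanoma cell lines. The 10 genes were taken from a list of symbols, each matched to 1 Ensembl identifier among the 60676 identifiers counted in every library. All 10 passed the low-count filter, among 19247 genes tested. The lowest count of any of them was 275, for CLK4 in A101D replicate 3, and the highest was 9921, for SRSF2 in MeWo replicate 8.

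Total RNA was sequenced from the human melanoma lines A101D, labelled as methionine dependent, and MeWo, labelled as methionine independent, with 8 libraries of each. All cells were grown in DMEM made without methionine, cystine or glutamine, to which dialyzed serum, antibiotics, glutamine, pyruvate and 150 µM cystine were added. The control medium had 200 µM methionine, and a methionine-free medium had 200 µM homocysteine in its place. The labels do not say which of these media a given library came from. They also do not say what distinguishes replicates 1 to 4 from replicates 5 to 8, so these are treated below as 4 sets of 4 numbered libraries (2 per line) and not as treatments. Nothing states that the libraries of a set were separate cultures, and p-values then measure only the spread between these libraries, which may be technical. Each kind of methionine requirement is represented by 1 line, so a difference between the lines cannot be told apart from any other difference between A101D and MeWo.

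SR proteins bind exonic enhancers in pre-mRNA through RNA recognition motifs and recruit the spliceosome through a tail rich in arginine-serine dipeptides, the RS domain. SRPK kinases phosphorylate the RS domain in the cytoplasm for nuclear import, and the dual-specificity CLK kinases phosphorylate it further in the nucleus, which releases SR proteins from nuclear speckles to sites of transcription. Many SR genes, and CLK1 and CLK4, regulate their own output through poison exons or retained introns, and the resulting transcripts are degraded or held in the nucleus. A count per gene, as used here, does not tell productive transcripts from these unproductive forms. In bulk libraries, fewer cells expressing a gene and less RNA per cell cannot be told apart.

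The CLK genes lie on different chromosomes. By GENCODE v29 (GRCh38), CLK1 (ENSG00000013441) is at chr2:200853009-200864744, CLK2 (ENSG00000176444) at chr1:155262868-155278491, CLK3 (ENSG00000179335) at chr15:74598500-74645414 and CLK4 (ENSG00000113240) at chr5:178602664-178630615. Of the SR genes, SRSF1 (ENSG00000136450) is at chr17:58003360-58007346, SRSF2 (ENSG00000161547) at chr17:76734115-76737374 and SRSF3 (ENSG00000112081) at chr6:36594353-36605600. SRSF6 (ENSG00000124193) is at chr20:43457928-43464247, SRSF7 (ENSG00000115875) at chr2:38743599-38751494 and SRSF11 (ENSG00000116754) at chr1:70205682-70253052. All 10 are protein-coding genes, and the values below are for whole genes. Part of SRSF2 (1510 bases) is shared with MFSD11 on the opposite strand (whose mean level was 44.8 CPM, defined below), part of CLK3 (14857 bases) with EDC3 (29.5) and part of CLK2 (909 bases) with HCN3 (4.57). The library kit keeps the strand, but the strand setting of the counting is not given in the sources used here. The counts of these 3 genes are uncertain to that extent. SRSF2 also shares 3260 bases with ENSG00000267168 (0.00402) on the opposite strand. SRSF1 shares 3887 bases with the protein-coding gene ENSG00000266086 (0.018) on the same strand, which strand cannot separate. What part that overlap had in the SRSF1 counts was not tested. Annotated pseudogene copies of the 10 genes had at most 17 counts in any library.

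Promoter sequences were looked up because some members, though not all, moved together across libraries, as described below. RefSeq (GRCh38.p14) gave the bases upstream of the annotated start for the 8 genes used here, all but CLK4 and SRSF2. The letters TGACG, the core of the cAMP response element, read on either strand, were found in 4 of the 8, where 21.2% of 35116 promoters of the same length held them. Not all members are in this count, and nothing is read from it. The matches are shown with 12 bases on each side, 5′ to 3′ along the gene, with the core in capitals (CGTCA is the same core read from the other strand).
CLK1: acgcgctcgctgCGTCAtcagtgttttcg
SRSF1: tcgtggggagggTGACGtcgcgcgtgcgt
SRSF3: tttgtagccataCGTCAcggcctcttctg
SRSF11: tggagccgacgcTGACGcgccctgcgccg
These stretches are chr2:200864691-200864719 (minus strand), chr17:58007380-58007408 (minus), chr6:36594257-36594285 (plus) and chr1:70221323-70221351 (plus). The core ended 45, 146, 89 and 41 bases before the start that RefSeq gives. That start differs from the GENCODE gene edge by 86 bases for CLK1 and 15698 bases for SRSF11, so that these 2 stretches lie within the GENCODE gene bounds given above, and the RefSeq starts of CLK2 and CLK3 lie 4987 and 9872 bases inside theirs. Whether the core had a part in the levels of these 4 genes was not tested. The full palindrome TGACGTCA (1.65% of promoters), the amino acid response element TGATGNAA (3.14%) and the ETS core CCGGAAG (8.52%) were in none of the 8 windows. The E-box CACGTG was in CLK2 (6.34% of promoters).

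SRSF3 and SRSF7 were the pair of members with the most similar profile over the 16 libraries, and their upstream sequences are printed in full for that reason, with the CCAAT box, the TGACG core above and the GC box GGGCGG (either strand) in capitals. SRSF3 is chr6:36594112-36594352 (plus strand, 241 bases) and SRSF7 is chr2:38751495-38751744 (minus strand, 250 bases).
SRSF3: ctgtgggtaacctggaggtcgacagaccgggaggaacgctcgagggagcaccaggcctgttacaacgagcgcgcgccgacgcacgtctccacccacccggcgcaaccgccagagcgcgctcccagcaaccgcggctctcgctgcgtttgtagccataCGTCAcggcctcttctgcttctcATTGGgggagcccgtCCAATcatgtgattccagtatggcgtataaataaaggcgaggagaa
SRSF7: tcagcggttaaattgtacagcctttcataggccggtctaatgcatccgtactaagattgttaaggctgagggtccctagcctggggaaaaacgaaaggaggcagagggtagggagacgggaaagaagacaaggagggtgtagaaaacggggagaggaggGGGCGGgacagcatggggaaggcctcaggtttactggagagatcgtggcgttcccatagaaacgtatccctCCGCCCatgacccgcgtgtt
None of the 3 capitalised motifs occurred in both: SRSF3 had the CCAAT box and the TGACG core, and SRSF7 had the GC box. The CCAAT box was in 32% and the GC box in 42.6% of all promoters. A match of letters is a description of the window and not of a bound factor.

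The 16 libraries held 28910881 to 38961862 counts. Values are given as CPM, the share of a library's counts that fell on a gene times 1000000, on library sizes scaled by trimmed mean of M-values factors, and a replicate number is that of the labels. Within a line, libraries fell into the sets 1 to 4 and 5 to 8: the chi-square per degree of freedom between pairs was 2.32 to 6.69 within a set and 77.7 to 114 across sets in A101D, and 1.86 to 7.2 against 8.6 to 13.8 in MeWo. The share of counts on mitochondrial genes was 1.71% to 1.92% in the first A101D set, 1.93% to 2.33% in the second and 1.28% to 1.45% in MeWo. Genes with a count numbered 31281 to 33107 in the first A101D set, 34020 to 34607 in the second and 30066 to 34471 in MeWo. All 7 melanocyte lineage markers checked (MITF, SOX10, PMEL, MLANA, TYR, DCT, S100B) were at 1 CPM or more in every library, although TYR, which encodes tyrosinase, was only 1.1 to 1.76 CPM in A101D. Their summed level was 2872 to 3442 CPM and 2527 to 2763 CPM in the A101D sets and 8177 to 9010 CPM and 8622 to 8968 CPM in the MeWo sets. PMEL made up most of the MeWo sum (6640 CPM, against 223 CPM in A101D), while DCT and S100B were lower in MeWo (log2 differences of -1.56 and -2.21). The 9 markers of other skin and blood cells summed to 922 to 1042 CPM in the first A101D set and 608 to 671 CPM in the second, nearly all of it COL1A2, and to 3.77 to 4.78 CPM in MeWo. Within that list VWF (3.7 and 16 CPM) and KRT14 (0.593 and 1.96 CPM) were higher in the second A101D set. CD3E was at 0 in MeWo replicates 1 to 4 and KRT5 in MeWo replicates 5 to 8. The mitochondrial share, the number of genes detected and both marker sums move with the A101D sets, and the mitochondrial share and marker sums also differ between the lines. Their part in the results below was not tested.

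Among the kinases, CLK1, CLK2 and CLK4 were higher in replicates 5 to 8 than in replicates 1 to 4 of both lines, and CLK3 was lower. CLK1, which phosphorylates SR proteins and whose own pre-mRNA holds regulated introns, had 34.3, 33.7, 37.8 and 36.4 CPM in A101D replicates 1 to 4 and 52.7, 51.7, 52.6 and 49.4 CPM in replicates 5 to 8. In MeWo it had 70.8, 68.4, 69.7 and 74.5 CPM, then 83, 100.9, 89.3 and 91.2 CPM. The 4 sets did not overlap, and each MeWo library was above each A101D library. The log2 difference between replicates 5 to 8 and 1 to 4 was 0.54 (SE 0.051) in A101D, a 1.45-fold difference with adjusted p = 6.5e-12 in limma, and 0.36 (SE 0.044) in MeWo, 1.28-fold with adjusted p = 2.84e-07.

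CLK4, the closest relative of CLK1 among the 4 kinases, had 9.66, 10.2, 9.79 and 9.28 CPM in A101D replicates 1 to 4 and 15.3, 13, 14.1 and 14 CPM in replicates 5 to 8. In MeWo the values were 17.7, 15.8, 16 and 18 CPM, then 20.5, 21.3, 20.5 and 21.2 CPM. As for CLK1, the 4 sets stood apart in the same order. The log2 difference was 0.53 (SE 0.068, adjusted p = 1.05e-08 in limma) in A101D and 0.31 (SE 0.055, adjusted p = 0.000141) in MeWo. The ratio of CLK1 to CLK4 counts was 3.66 ± 0.284 and 3.68 ± 0.232 in the A101D sets and 4.2 ± 0.167 and 4.36 ± 0.279 in the MeWo sets (SD, n = 4 each), so it moved by less than its spread between the sets of a line.

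CLK2, another nuclear SR protein kinase, was the only kinase with less RNA in MeWo. It had 42.3, 41.1, 43.5 and 44.2 CPM in A101D replicates 1 to 4 and 55.4, 52.9, 54.1 and 52.7 CPM in replicates 5 to 8. MeWo had 36.4, 33.8, 39.0 and 41.1 CPM, then 39.3, 41.5, 44.3 and 42.0 CPM, so that the A101D sets were apart and the MeWo sets overlapped. The log2 difference between the sets was 0.33 (SE 0.046, adjusted p = 5.82e-08 in limma) in A101D and 0.16 (SE 0.048, adjusted p = 0.023) in MeWo. The MeWo call was lost without any one of MeWo replicates 1, 2, 7 or 8 (adjusted p up to 0.148), and with no low-count filter (0.103).

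CLK3, a kinase of the same family, ran the other way by a small amount. It had 68.6, 62.1, 64.9 and 66.7 CPM in A101D replicates 1 to 4 and 60.3, 58.6, 58.4 and 57.3 CPM in replicates 5 to 8. In MeWo the values were 87.8, 86.8, 89.5 and 91.7 CPM, then 83, 80, 85.9 and 79 CPM. No library of replicates 5 to 8 reached the lowest of replicates 1 to 4 in its line. The log2 difference was -0.16 (SE 0.039, adjusted p = 0.000385 in limma) in A101D and -0.12 (SE 0.037, adjusted p = 0.0217) in MeWo. On total counts, with no scaling factor, it was -0.08 in both lines and neither passed (adjusted p = 0.0893 and 0.132). The MeWo call was also lost without any one of MeWo replicates 3, 4, 6 or 8 (adjusted p up to 0.0954).

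**Figure D1:**
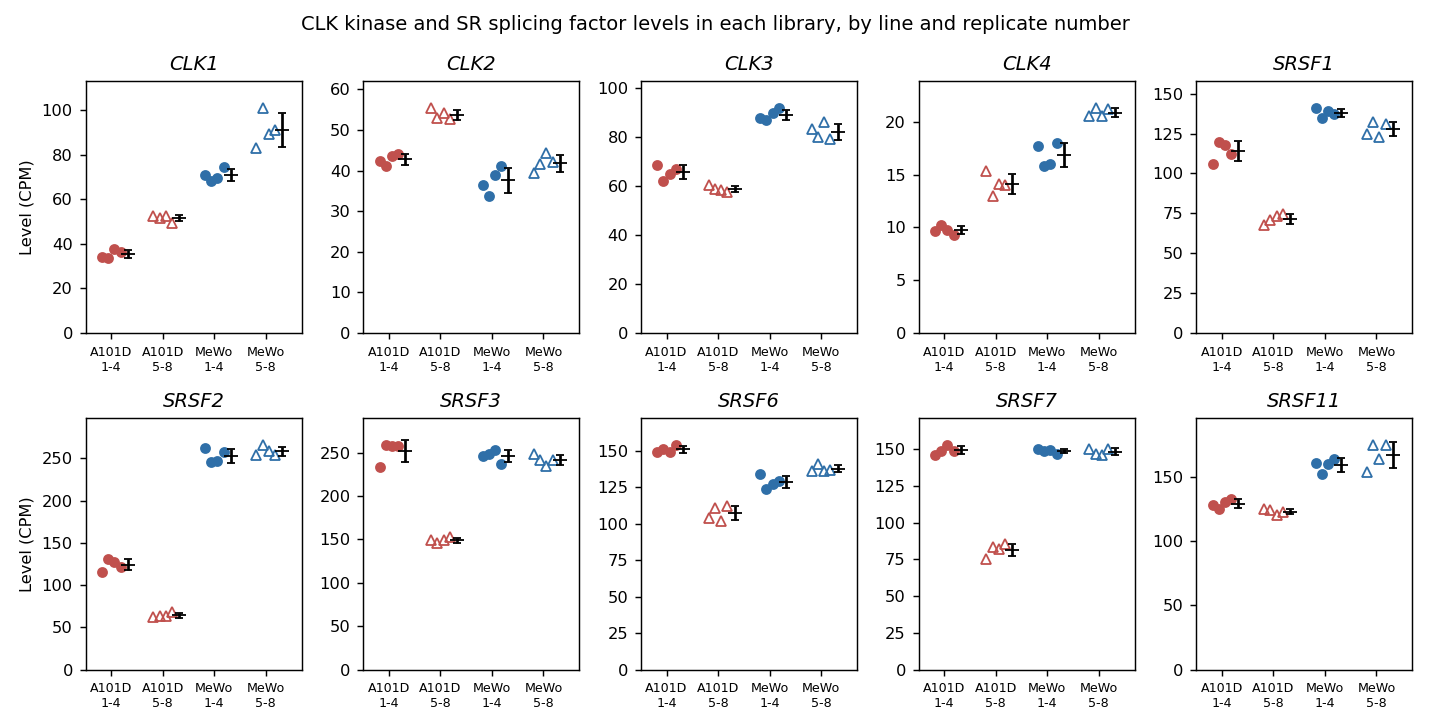
CPM of each of the 10 genes in every library, by line and set (filled circles for replicates 1 to 4, open triangles for replicates 5 to 8), with the mean ± SD of each set of 4 as a black bar. SRSF2 lies between 62.3 and 68.3 CPM in the second A101D set and at 245 CPM or more in all 8 MeWo libraries, while CLK1 steps up over the 4 sets.

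Of the 6 SR genes, 5 had less RNA in A101D replicates 5 to 8 than in replicates 1 to 4, by 1.41-fold to 1.92-fold. SRSF2, which binds exonic enhancers and couples splicing to transcription elongation, had 116, 131, 127 and 122 CPM in A101D replicates 1 to 4 and 62.3, 63.9, 63.0 and 68.3 CPM in replicates 5 to 8. In MeWo it had 262, 245, 247 and 257 CPM, then 254, 266, 258 and 254 CPM. The A101D sets were far apart, the MeWo sets overlapped, and no A101D library reached the MeWo range. The log2 difference between the sets was -0.94 (SE 0.040) in A101D, 1.92-fold lower with adjusted p = 3.21e-22 in limma. In MeWo it was 0.03 with a 95% interval of -0.04 to 0.10 (adjusted p = 0.631). SRSF8, a gene of high similarity described below, went the other way in A101D, with set means of 55.9 and 108 CPM. Reads could be split between both genes, so the SRSF2 values here and below are uncertain to that extent.

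SRSF7, which has a zinc knuckle beside its RNA recognition motif and acts in splicing and mRNA export, had 146, 149, 153 and 149 CPM in A101D replicates 1 to 4. It had 75.3, 83.2, 82.1 and 85.3 CPM in replicates 5 to 8. MeWo lay at the level of A101D replicates 1 to 4 throughout, with 150.2, 149, 149.6 and 147 CPM, then 150.3, 147, 146 and 150.2 CPM. The log2 difference between the sets was -0.88 (SE 0.035) in A101D, 1.83-fold lower with adjusted p = 7.25e-23 in limma, and -0.01 in MeWo with a 95% interval of -0.08 to 0.06 (adjusted p = 0.925).

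SRSF3, the smallest SR protein, which links splicing with mRNA export and 3′ end choice, had 233, 259, 258 and 257 CPM in A101D replicates 1 to 4 and 149, 146, 149 and 153 CPM in replicates 5 to 8. MeWo libraries had 246, 248, 253 and 237 CPM, then 248, 242, 235 and 241 CPM, all within the range of A101D replicates 1 to 4. Its log2 difference was -0.75 (SE 0.035) in A101D, 1.69-fold lower with adjusted p = 4.53e-21 in limma. In MeWo it was -0.03 with a 95% interval of -0.09 to 0.04 (adjusted p = 0.664).

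SRSF1, the founding SR protein and a splicing regulator described as a proto-oncogene, had 106, 119.7, 118 and 112 CPM in A101D replicates 1 to 4 and 67.4, 70.6, 73.4 and 74.7 CPM in replicates 5 to 8. The MeWo libraries had 141, 135, 139 and 137 CPM, then 125, 132, 123 and 131 CPM. The 4 sets did not overlap, and replicates 5 to 8 were the lower set in both lines, by a much smaller margin in MeWo. The log2 difference was -0.67 (SE 0.040, 1.59-fold lower, adjusted p = 1.38e-17 in limma) in A101D and -0.11 (SE 0.038, adjusted p = 0.0366) in MeWo. The MeWo call was lost with upper-quartile factors, total counts, limma-trend or no low-count filter, and without any one of MeWo replicates 1, 3, 5 or 7 (adjusted p 0.0501 to 0.144).

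SRSF6, an SR protein with a pair of RNA recognition motifs, had 149, 151, 149 and 154 CPM in A101D replicates 1 to 4 and 104, 110.5, 102 and 112 CPM in replicates 5 to 8. Its level in MeWo was 134, 124, 127 and 129 CPM, then 136, 141, 136 and 137 CPM. Both MeWo sets lay between the A101D sets. The log2 difference was -0.50 (SE 0.035, 1.41-fold lower, adjusted p = 1.91e-15 in limma) in A101D. In MeWo it was 0.10 with a 95% interval of 0.03 to 0.17 and missed the threshold (adjusted p = 0.0526), which it passed with upper-quartile factors, total counts or the stricter 1 CPM filter. It also passed without any one of A101D replicates 1, 2 or 8 or MeWo replicate 1 (adjusted p 0.0348 to 0.0498 in limma).

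SRSF11, an RS-domain protein that interacts with the spliceosome and is set apart in sequence from the classical SR proteins, had 128, 125, 130.3 and 133 CPM in A101D replicates 1 to 4 and 125, 124, 120.0 and 123 CPM in replicates 5 to 8. In MeWo it had 161, 152, 160.0 and 164 CPM, then 154, 175, 164 and 175 CPM. It was the only SR member that passed the test in neither line. The log2 difference was -0.07 with a 95% interval of -0.14 to 0.01 (adjusted p = 0.119 in limma) in A101D and 0.07 with an interval of -0.01 to 0.14 (adjusted p = 0.226) in MeWo. Without MeWo replicate 5 the MeWo difference was 0.11 and passed (adjusted p = 0.0387 in limma).

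Counted together, 3 of the 10 members were higher in A101D replicates 5 to 8, where 34.0% of all genes tested were called higher, and 6 were lower, where 34.1% were called lower. The share of members called higher was thus near the background. The median log2 difference was 0.43 over the 4 kinases and -0.71 over the 6 SR genes, against 0.00 over all genes. In MeWo, 3 members were higher (7.20% of all genes) and 2 were lower (8.42%), with medians of 0.23 for the kinases and 0.01 for the SR genes, against 0.00. Of all MeWo calls, 46.1% were higher, and that share was 35.2% with median-of-ratios factors and 66.7% on total counts. The MeWo count of 5 fell to 3 without MeWo replicate 3, 7 or 8. Summed over the 6 SR genes, the level was 919 ± 27.3 CPM in A101D replicates 1 to 4, 597 ± 14.9 CPM in replicates 5 to 8, and 1074 ± 17.3 and 1080 ± 18.9 CPM in the MeWo sets (SD, n = 4 each). Summed over the 4 kinases it was 154 ± 4.42, 178 ± 4.36, 214 ± 8.4 and 236 ± 7.91 CPM in the same order. The ratio of CLK1 to SRSF3 counts was 0.141 ± 0.00778 and 0.346 ± 0.0156 in the A101D sets and 0.288 ± 0.0184 and 0.377 ± 0.0334 in the MeWo sets.

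**Figure D2:**
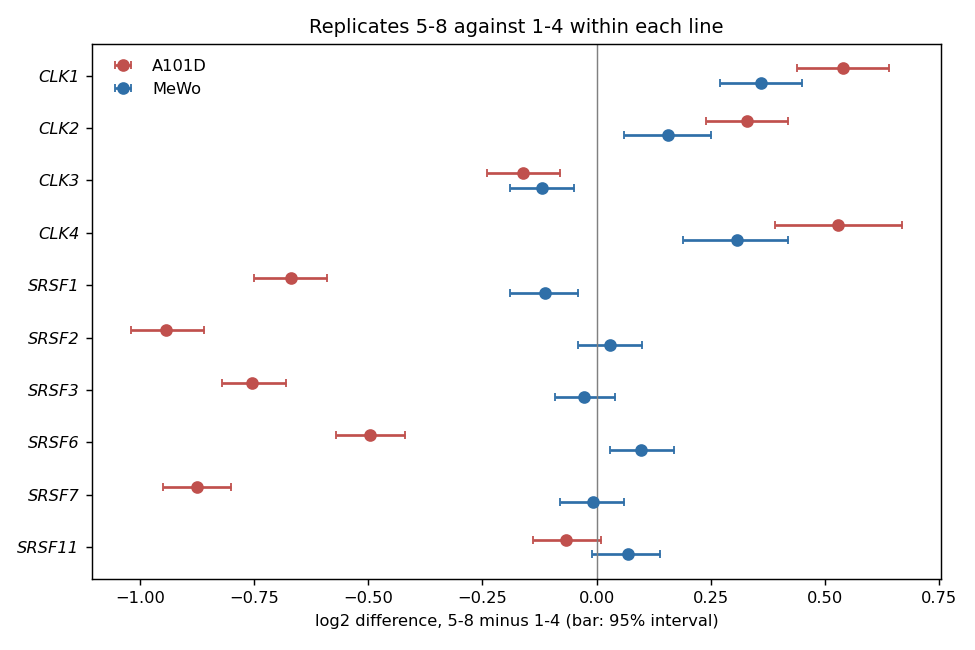
Log2 difference between replicates 5 to 8 and replicates 1 to 4 for each member, in A101D and in MeWo, with 95% intervals from limma. The intervals of SRSF1, SRSF2, SRSF3, SRSF6 and SRSF7 lie well below 0 in A101D and near 0 in MeWo, and those of CLK1, CLK2 and CLK4 lie above 0 in both lines.

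The difference between the lines was itself tested, as the log2 difference of the sets in MeWo minus that in A101D. It was above 0 for all 6 SR members (27.9% of all genes tested) and below 0 for CLK1, CLK2 and CLK4 (24.9%). SRSF2 had the largest value among the members, 0.97 (SE 0.053, adjusted p = 2.64e-18 in limma), followed by SRSF7 with 0.87 (SE 0.049, adjusted p = 7.61e-18) and SRSF3 with 0.73 (SE 0.048, adjusted p = 1.02e-15). SRSF6 had 0.59 and SRSF1 had 0.56, with adjusted p = 5.57e-13 and 4.58e-11. For these 5 genes the A101D sets therefore differed more than the MeWo sets.

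The remaining members had small values. CLK1 had -0.18 (adjusted p = 0.0243 in limma), CLK2 -0.17 (0.0271), CLK4 -0.22 (0.0326) and SRSF11 0.13 (0.0301), and CLK3 had 0.04 with a 95% interval of -0.07 to 0.15 (0.541). The kinase calls were lost when no low-count filter was applied (adjusted p = 0.109, 0.0854 and 0.105), and SRSF11 was lost with each of the 3 other scalings (0.0971, 0.15 and 0.212). Leaving out 1 library also ended these calls. For CLK1 this was so without A101D replicate 1 or 2 or MeWo replicate 1, 4, 5 or 7 (adjusted p up to 0.0846), and for CLK2 without A101D replicate 2 or MeWo replicate 3, 4, 5 or 6 (up to 0.109). For CLK4 it was so without A101D replicate 4 or MeWo replicate 1, 4, 5 or 7 (up to 0.0941), and for SRSF11 without A101D replicate 4, 5, 6 or 7 or MeWo replicate 8 (up to 0.119). CLK3, whose sets differed in the same direction in both lines, gave no detectable difference between them.

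Between the lines, over all 16 libraries, MeWo had more RNA of 8 members (38.5% of all genes tested were higher) and less of CLK2 (40.5% were lower). SRSF2 differed most, by 1.52 on the log2 scale (SE 0.163, 2.86-fold, adjusted p = 1.5e-07 in limma), followed by CLK1 with 0.91 (SE 0.118, 1.87-fold, adjusted p = 1.75e-06) and CLK4 with 0.68 (SE 0.113, adjusted p = 2.74e-05). SRSF1 had 0.56, CLK3 0.46, SRSF7 0.43, SRSF11 0.37 and SRSF3 0.33, and CLK2 had -0.28 (adjusted p = 0.0029). SRSF6 had 0.07 with a 95% interval of -0.13 to 0.26 (adjusted p = 0.527). With the sets in the model and both given equal weight, it passed at 0.06 (adjusted p = 0.016 in limma). In the fit by line alone, the difference between the A101D sets counts as spread between libraries. There the SRSF3 call (adjusted p = 0.0311 in limma) was lost without any one of A101D replicates 5 to 8 (0.0884 to 0.105). That of SRSF7 (0.0161) was lost without A101D replicate 7 or 8 (0.0543 and 0.0537). Both calls were kept under all 8 other scalings, filters and models, among them the model with the sets.

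Those pooled values average over sets in which the lines compared differently. In replicates 1 to 4, 6 members were higher in MeWo (38.9% of all genes) and 2 were lower (42.6%), and in replicates 5 to 8, 9 were higher (41.6%) and 1 was lower (43.7%). SRSF6 was lower in MeWo in replicates 1 to 4, by -0.23 (SE 0.035, adjusted p = 1.49e-07 in limma), and higher in replicates 5 to 8, by 0.36 (SE 0.035, adjusted p = 5.85e-12). SRSF3 and SRSF7 showed no detectable difference in replicates 1 to 4, with -0.03 (95% interval -0.10 to 0.04) and 0.00 (-0.07 to 0.07), and differed by 0.70 and 0.86 in replicates 5 to 8. Without A101D replicate 1, the library with the lowest SRSF3 of its set, SRSF3 passed in replicates 1 to 4 with -0.11 (adjusted p = 0.0045). SRSF2 was 2.04-fold higher in MeWo in replicates 1 to 4 and 4.01-fold higher in replicates 5 to 8. The kinases kept their direction in both sets, with CLK1 at 1.00 and 0.82, CLK4 at 0.80 and 0.58, CLK3 at 0.44 and 0.48 and CLK2 at -0.19 and -0.36.

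**Figure D3:**
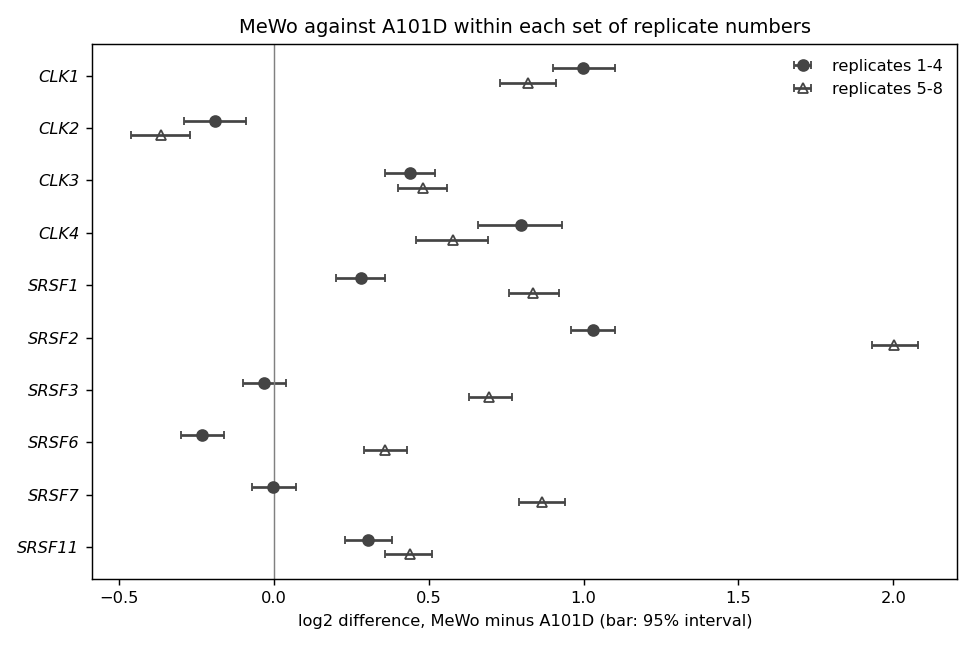
Log2 difference MeWo minus A101D for each member in replicates 1 to 4 and in replicates 5 to 8, with 95% intervals from limma. SRSF6 changes side between the sets, from -0.23 to 0.36, and SRSF2 goes from 2.04-fold to 4.01-fold higher in MeWo.

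Levels of different genes were compared per kilobase of annotated exon (RPKM, on GENCODE v29 exon lengths). In A101D replicates 1 to 4 the order was SRSF2 (41.1 RPKM), SRSF7 (37.0), SRSF3 (35.4), SRSF1 (34.1), SRSF6 (32.9), SRSF11 (15.2), CLK2 (11.7), CLK1 (6.88), CLK3 (3.21) and CLK4 (1.23), and the neighbours from SRSF7 to SRSF6 overlapped. In A101D replicates 5 to 8 SRSF6 (23.3), SRSF1 (21.4), SRSF2 (21.3), SRSF3 (21.0) and SRSF7 (20.1) each overlapped the next, as did CLK2 (14.6) and SRSF11 (14.5). SRSF2 thus stood above the other SR genes in A101D replicates 1 to 4 and within their range in replicates 5 to 8. In MeWo SRSF2 led in both sets with 83.8 and 85.5 RPKM, SRSF1 came next with 41.4 and 38.3 (in replicates 5 to 8 it overlapped SRSF7 at 36.7), and CLK1 (13.7 and 17.6) stood above CLK2 (10.2 and 11.4), the reverse of A101D. CLK1 overlapped SRSF11 (19.7) in MeWo replicates 5 to 8. CLK4 was last in all 4 sets, with 1.23 to 2.64 RPKM as set means. The annotated exons of CLK3 add up to 20443 bases, the longest of the 10. Those of SRSF11, CLK4 and SRSF3 add up to 8473, 7924 and 7118 bases, against 3017 for SRSF2. The RPKM of each gene, and so the orders above, depends on how many of its annotated exons these cells use.

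Profiles were also compared with those of 10099 other genes, as the root mean square difference of log2 CPM centred on the mean of the 16 libraries. CLK1 was nearest to RECQL5 (0.087), TGIF1 (0.105) and AZI2 (0.106), and CLK4 to PCMTD1 (0.077), SLX4IP (0.095) and RNFT1 (0.097). The nearest member to each was the other (0.138), at rank 18 among all genes compared for CLK1 and rank 64 for CLK4. CLK2 was nearest to ANKZF1 (0.053), SCARNA7 (0.066) and ARFGAP1 (0.070), and CLK3 to LARP4B (0.048), CUTA (0.053) and HPCAL1 (0.053). The nearest member to CLK2 was SRSF6 (0.347, rank 4124). SRSF3 was nearest to NDC1 (0.048), SLC29A1 (0.054) and XRCC5 (0.056), and SRSF7 to SEPTIN8 (0.053), NAP1L1 (0.054) and RPL4 (0.055). Between SRSF3 and SRSF7 it was 0.079, which put SRSF7 at rank 47 for SRSF3 and SRSF3 at rank 23 for SRSF7. SRSF1 was nearest to XRN2 (0.054), BTG3 (0.054) and IPO7 (0.057), and SRSF6 to XYLB (0.048), IFT81 (0.065) and TBC1D5 (0.066). SRSF11 was nearest to RBM5 (0.052), PHF20L1 (0.054) and FNTA (0.055). SRSF2 was nearest to PTTG1 (0.066), RPL34 (0.067) and HACD1 (0.070) and stood far from every other member, the nearest being SRSF1 at 0.492 (rank 1499).

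The other SR genes did not all move in the same direction. Of these 6 genes in A101D, 2 were higher in replicates 5 to 8, near the 34.0% of all genes. Another 3 were lower (34.1% of all genes) and 1 was not called. Their median log2 difference was -0.16, against 0.00 over all genes. SRSF8, an SR gene of high similarity to SRSF2, went against SRSF2: it was 55.9 ± 1.65 CPM in A101D replicates 1 to 4 and 108 ± 6.09 CPM in replicates 5 to 8, and 29.5 ± 1.68 and 31.2 ± 0.329 CPM in the MeWo sets (SD, n = 4 each). The log2 difference in A101D was 0.95 (SE 0.040, adjusted p = 3.5e-22 in limma), and that in MeWo minus that in A101D was -0.87 (adjusted p = 1.98e-14). Because of the similarity, reads could be split between SRSF2 and SRSF8 in a way that the counting method decides, and both are uncertain to that extent. SRSF5 and SRSF10, the latter a splicing regulator active when dephosphorylated, were lower in A101D replicates 5 to 8, with -0.48 and -0.50, and SRSF4 was higher by 0.12. In MeWo 0 of the 6 passed in limma, 0 in limma-trend and 2 at an unadjusted p under 0.05. Of all genes, 15.6% passed in limma there, in either direction. Summed over all 12 SR genes, the level was 1383 ± 28.6, 1028 ± 19.0, 1706 ± 31.1 and 1735 ± 35.1 CPM over the 4 sets.

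Enzymes that act on SR proteins besides the CLKs were counted with the SR importer. Of these 12 genes for kinases, phosphatase subunits and the importer, 5 were higher and 5 lower in A101D replicates 5 to 8 (median -0.05), near the 34.0% and 34.1% of all genes. In MeWo 2 were higher (7.20% of all genes) and 1 lower (8.42%), with a median of 0.02. SRPK1, a cytoplasmic SR protein kinase, was lower in both lines, at 91.5 ± 3.34 and 63.4 ± 1.2 CPM in A101D and 60.9 ± 1.58 and 54.3 ± 1.39 CPM in MeWo, with log2 differences of -0.53 (adjusted p = 6.59e-16 in limma) and -0.16 (adjusted p = 0.00234). SRPK2, of the same family, was higher in A101D, by 0.34 (adjusted p = 1.64e-10 in limma). Its level was 97.9 ± 2.97 and 124 ± 2.07 CPM in A101D, and 56.2 ± 3.64 and 54.3 ± 1.48 CPM in MeWo. DYRK1A, DYRK1B and DYRK3, kinases of a family close to the CLKs, were higher in A101D with 0.42, 0.37 and 0.34, and DYRK2 was lower with -0.20. DYRK1B and DYRK3 were also higher in MeWo, with 0.22 and 0.15. PPP1CC, a catalytic subunit of protein phosphatase 1, was lower in A101D with -0.30.

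Among 18 SR-related and speckle genes, 7 were higher (34.0% of all genes) and 9 lower (34.1%) in A101D replicates 5 to 8 (median -0.15). In MeWo 2 were higher (7.20% of all genes) and 2 lower (8.42%), with a median of 0.01. PNN, which encodes the speckle and desmosome-associated protein pinin, was 88.3 ± 4.76 and 48.0 ± 2.24 CPM in the A101D sets, a log2 difference of -0.88 (SE 0.044, adjusted p = 6.33e-20 in limma), and was lower in MeWo by a smaller amount (-0.16, adjusted p = 0.00331). TRA2B, an SR-like splicing activator, had -0.52 in A101D, while RSRC2 and SREK1 had 0.40 and 0.35. In MeWo SRRM1 had -0.16, TRA2A 0.16 and RSRP1 0.23. The cyclin L and transcription-coupled kinase genes included opposite movements in 1 pair: CDK12 was lower (-0.59, 128 ± 2.31 to 85.0 ± 0.996 CPM) and its paralogue CDK13 higher (0.59, 141 ± 1.91 to 213 ± 13.4 CPM) in A101D. CCNL2, a cyclin of CDK11 that resides in speckles, was higher in A101D (0.46) and MeWo (0.13). Of these 7 genes, 3 were higher (34.0% of all genes) and 1 lower (34.1%) in A101D. In MeWo 2 were higher (7.20% of all genes) and 2 lower (8.42%), where CCNL1 had 0.13, CDK12 -0.11 and CDK11B -0.14. In MeWo the calls of CCNL1, CCNL2, CDK11B, CDK12, DYRK1B and TRA2A were each lost under at least 1 alternative and without at least 1 MeWo library. The libraries were MeWo replicates 2 and 6 for TRA2A, 1, 3 and 7 for DYRK1B, 2, 3 and 6 for CDK12, 1, 2, 6 and 7 for CCNL2, 2, 3, 4, 6 and 8 for CDK11B, and 1, 2, 3, 6, 7 and 8 with A101D replicates 5 and 6 for CCNL1, with adjusted p up to 0.181.

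The hnRNP genes, whose proteins bind pre-mRNA and often oppose SR proteins, were lower in A101D replicates 5 to 8 in 19 of 22 cases, where 34.1% of all genes were lower, and higher in 1 (34.0% of all genes). Their median was -0.53 against 0.00 over all genes. HNRNPAB went from 197 ± 2.71 to 93.2 ± 7.46 CPM, a log2 difference of -1.08 (SE 0.041, adjusted p = 2.67e-23 in limma), and HNRNPDL from 157 ± 4.08 to 79.9 ± 7.7 CPM, or -0.98. HNRNPA0 was the 1 gene that was higher, with 0.25. In MeWo 5 of the 22 were lower (6 at an unadjusted p under 0.05, 3 in limma-trend) and 0 were higher by any of these counts (median -0.04), with HNRNPM at -0.17 and HNRNPR at -0.12. Of all genes, 8.42% were lower and 7.20% higher in MeWo in limma. Core spliceosome genes were lower in 22 of 31 cases in A101D (34.1% of all genes), with 1 higher (PRPF3, 0.15, against 34.0% of all genes) and a median of -0.28. SNRPD1, a Sm ring protein, had -0.90 and SNRPA, of the U1 particle, had -0.77. In MeWo 12 of the 31 were lower (18 at an unadjusted p under 0.05, 10 in limma-trend), against 8.42% of all genes in limma. Among them were SNRPD3 at -0.30 and SF3B5 at -0.20. By any of these counts 0 were higher (7.20% of all genes in limma), and the median was -0.08. The test of the difference between the lines called 27.9% of all genes above 0 and 24.9% below. It called 19 of the 22 hnRNP genes above 0 and 1 below, and 19 of the 31 core genes above and 2 below. Of the 6 other SR genes it called 3 above and 1 below, and of the 18 SR-related and speckle genes 9 and 4. The 12 enzyme and importer genes had 4 and 3, and the 7 cyclin L and transcription-coupled kinase genes 2 and 3. The 10 factors of nonsense-mediated decay, described next, had 1 and 4.

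Factors of nonsense-mediated decay, the pathway that removes transcripts with poison exons, were higher in 5 of 10 cases in A101D (34.0% of all genes), lower in 1 (34.1%) and not called in 4 (median 0.13). In MeWo 0 of the 10 were called in limma, against 15.6% of all genes in either direction. There 0 were called in limma-trend and 3 at an unadjusted p under 0.05. SMG8 and SMG5 had 0.47 and 0.38 in A101D and SMG9 had -0.65.

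**Figure D4:**
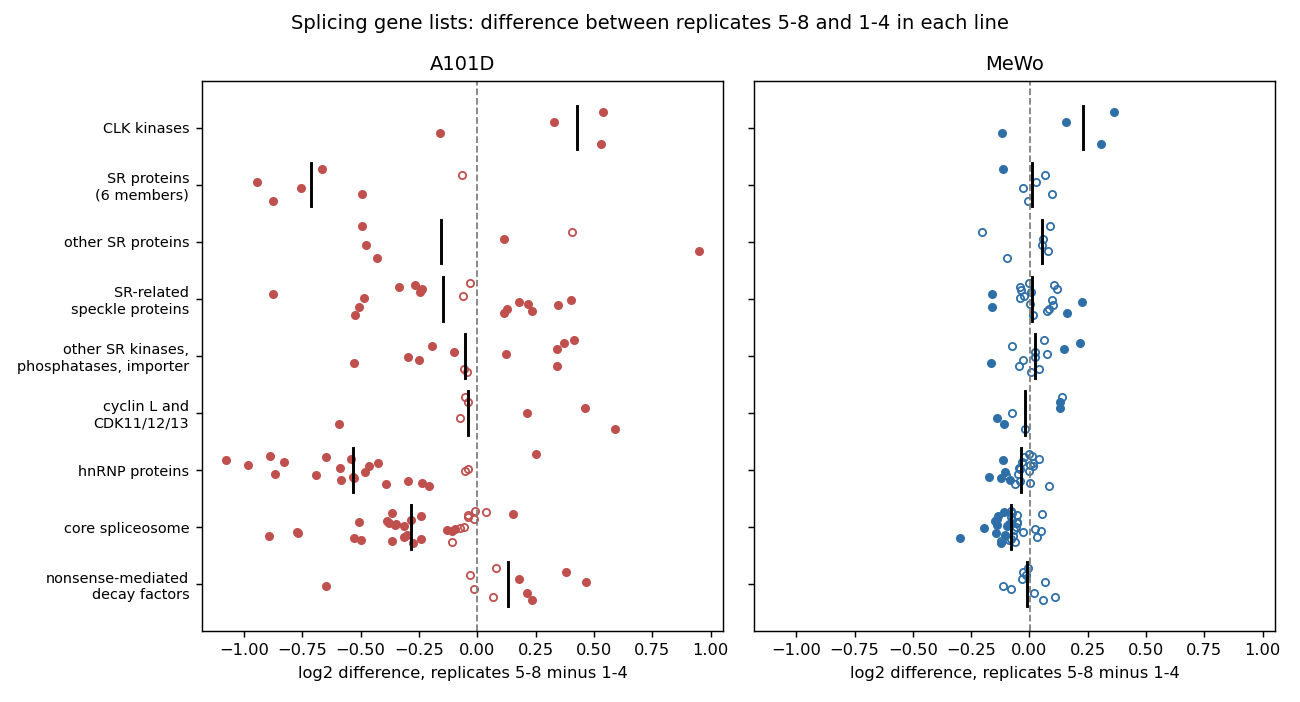
Log2 difference between replicates 5 to 8 and 1 to 4 for each gene of the splicing lists, in A101D and in MeWo (filled points passed the limma test at adjusted p of 0.05, open points did not), with the median of each list as a black tick and that of all genes as a dashed line. The SR members, hnRNP genes and core spliceosome genes lie mostly below 0 in A101D, with medians of -0.71, -0.53 and -0.28, and close to 0 in MeWo.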

How the data were processed

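RNA was measured in 16 libraries, 8 per line. The authors deposited 1 table per line of whole-number counts per gene over exons, per the file headers, with each cell joining an Ensembl identifier and its count, which were separated before use. STAR 2.7.1a, Trimmomatic 0.39-1, featureCounts 2.0.0 and GRCh38 are named in the submitters' processing notes. The sources used here give neither the annotation release nor the strand setting. Column headers gave the line and replicate number of each library.

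Genes with at least 0.298 CPM (10 counts at median depth) in 8 libraries and 15 counts in all were kept, 19247 in number. Library sizes were scaled by TMM factors (trims of 30% and 5%). Differences were fitted over all genes with limma 3.58.1 in R 4.3.3 (voom weights, robust moderation), once by line and once with a mean per line and set, with Benjamini-Hochberg adjusted p-values called at 0.05. The separated counts would also suit a count-model test, which was not run. The procedure was tested on simulated data in which few genes changed, in balanced directions and in the second A101D set only. Between the real A101D sets 68.0% of all genes were called, a case that the simulation does not cover. RPKM used GENCODE v29 exon unions. Totals of 28910881 to 38961862 counts gave a coefficient of variation of 0.843% to 8.41% for a member within a set (median 3.37%).

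All 10 members are described. From each list the 2 largest and 2 smallest called differences per line are named, and for each member the 3 nearest profiles, all at a mean of at least 10 CPM. SRPK2, DYRK2 and the A101D value of DYRK3 are given besides, as relatives of named genes. Members and lists were chosen with earlier results of these data known. SRSF9 and SRSF12 have no named value under this rule. The alternatives were median-of-ratios, upper-quartile and total-count scaling, no low-count filter, a 1 CPM filter, limma-trend, a threshold of 0.01, the replicate number as a block, the mean of both sets, and leaving out each library. One promoter is not reported here.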

Additional observations from a re-analysis of the deposited data

Results flagged for a closer look

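SRSF3 in A101D replicate 1, at 233 CPM, lay apart from the other 3 libraries of its set, which were at 257 to 259 CPM. The gap was 0.938 of the range of the set. This was 1 of 60 groups checked, and chance alone gives about 1 in 20.

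The difference between replicates 5 to 8 and 1 to 4 differed between the lines, by a test of that difference in limma, for 9 of the 10 members, 6 above 0 (27.9% of all genes) and 3 below (24.9%). At a threshold of 0.01 the number was 5, and CLK1, CLK2, CLK4 and SRSF11 each lost the call under at least 1 other setting and without certain single libraries. The value in MeWo minus that in A101D was -0.18 for CLK1, -0.17 for CLK2 and -0.22 for CLK4. It was 0.56 for SRSF1, 0.97 for SRSF2, 0.73 for SRSF3, 0.59 for SRSF6, 0.87 for SRSF7 and 0.13 for SRSF11. The labels do not say what the replicate numbers stand for, and the cause was not tested.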

How the results depend on the processing

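Over 60 member results, 1370 values were recomputed: 1308 kept their side of the threshold, 52 lost a call, 10 gained one and 0 called values changed sign. All alternatives kept the call of 46 of the 60. The count of members that differed between the MeWo sets, 5, was 2 at a threshold of 0.01 and 3 without the low-count filter, and 3 to 6 when single libraries were left out. The number for the difference between the lines in that contrast, 9, was 5 at a threshold of 0.01 and 6 to 9 when single libraries were left out. Left-out libraries gave 9 to 9 members in A101D, 7 to 9 between the lines, 8 to 9 between the lines in the first sets and 10 to 10 in the second.

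Scaling moved the median of all genes by at most 0.084 on the log2 scale. Over all genes, the limma test between the MeWo sets called 3005 genes, and 2020 of 47564 without the low-count filter. Same-numbered libraries of the lines correlated by 0.0528 to 0.175 in their deviations from the line means, which still hold the difference between the sets. Replicate 5 was under 0.1, so the numbers were not taken to pair them. In deviations from the means of line and set the correlations were -0.0289 to 0.0931. By deviations from the line means, 2 of 8 A101D libraries correlated best with the MeWo library of their own number. With the replicate block, 9 members differed between the lines and 9 in the contrast between them, 8 between the lines in the first sets and 10 in the second, and no member's call changed. All results are limited to 1 line of each kind and to counts per gene, which do not separate isoforms.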
